A study of Drosophila melanogaster with 4 samples.

Results

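H3K36me1 regions of chromosome arm 3L, the left arm of chromosome 3 of Drosophila melanogaster, are described here. They were chosen by position: every region of enrichment on 3L in the whole-series list that starts at or before base 22543557, which leaves out the last 2 Mb of the arm sequence, at its centromere end. The whole-series list held 1665 such regions of 8190 on all sequences. The lists of the ChIP samples held 1172 of 5645 regions in replicate 1 and 1185 of 5725 in replicate 2 by the same rule.

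The study mapped monomethylation of lysine 36 of histone H3 (H3K36me1) by chromatin immunoprecipitation and sequencing (ChIP-seq), in which fixed chromatin is precipitated with an antibody and the recovered DNA is sequenced. The chromatin came from nuclei of larvae of instar 3 of the Oregon-R strain, a laboratory wild type with no transgene or mutation in the labels. There were 2 ChIP samples and 2 input samples, all from this strain, stage and genotype. The labels name no tissue or sex, so a region cannot be placed in a cell type, and they do not say whether the replicates came from separate collections of larvae. The labels name 1 input sample as the control behind each replicate's list, but input values were not analysed here and none stand beside the values below. A spread between the replicates may therefore be technical.

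Lysine 36 of histone H3 can carry up to a trimethyl group, and each methylation state is written and read by partly different proteins. In flies, Set2 makes the trimethyl state in the bodies of transcribed genes, and Mes-4 and Ash1 act on lower states, with Ash1 known for keeping developmental genes active against Polycomb repression. H3K36me1 has been described in fly chromatin mainly over the long introns and regulatory sequence of active genes, where it tends to form broad stretches. No gene positions or bases of FlyBase release 5, the build of the region lists, were used here, so the regions are given by coordinates alone, with no gene, exon or sequence assigned. Coordinates are counted from 1, starting at the telomere end of 3L.

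The authors gave every region a score, whose scale the sources leave unstated. Here it serves to describe and rank regions of 1 list. Wherever scores of several lists stand together, a common scale is assumed. Library depth is unknown, since no read counts come with the regions. Nothing was tested: 2 replicates of 1 group allow no test, and an SD is given with n = 2.

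H3K36me1 regions covered about 25.4% of 3L, in many short regions and a small number of broad ones that held nearly as much length as all the others. Coverage of the 22.5 Mb considered was 25.9% in replicate 1 and 24.99% in replicate 2, a mean of 25.4% ± 0.64 (SD, n = 2). The covered length was 5.84 Mb in replicate 1 and 5.63 Mb in replicate 2. At the median, a region of replicate 1 measured 2282.5 bp and one of replicate 2 measured 2224 bp. Most regions were therefore far shorter than the widest ones, which reached 98.5 kb in replicate 1 and 114.2 kb in replicate 2. Regions of at least 10 kb, called broad below, numbered 144 in replicate 1 (12.3% of its regions) and 135 in replicate 2 (11.4%). They held 49.6% of the covered length in replicate 1 and 47.2% in replicate 2, or 48.4% ± 1.71 (SD, n = 2). To reach 50% of the covered length, the widest 147 regions of replicate 1 and the widest 152 of replicate 2 were enough.

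Very short regions were frequent and contributed little. Regions of up to 2 kb made up 41.8% of replicate 1 and 42.1% of replicate 2, and held 13.6% and 14.2% of the covered length. At the other extreme, regions of 20 to 50 kb numbered 48 in replicate 1 and 47 in replicate 2 and held 23.3% and 22.9% of the length. No region of replicate 1 was under 1301 bp and none of replicate 2 under 1302 bp, while the whole-series list went down to 1001 bp. Short and broad regions also differed in score. The median score of regions of up to 2 kb was 0.43 in replicate 1 and 0.45 in replicate 2, and that of regions of 20 to 50 kb was 1.15 and 1.14. Across regions, which are not independent of each other, width correlated with score at a Spearman's rho of 0.85 in replicate 1 (n = 1172) and 0.83 in replicate 2 (n = 1185).

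**Figure D1:**
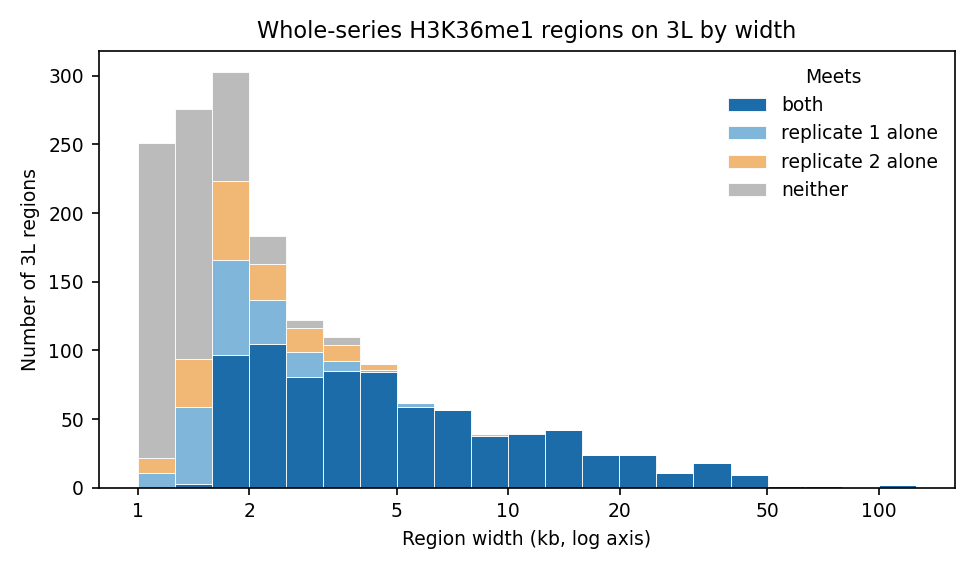
Number of whole-series H3K36me1 regions on 3L (vertical axis) by width in kb (horizontal log axis), with colours for regions that meet a region of both replicates, of replicate 1 alone, of replicate 2 alone or of neither. Regions up to 2 kb wide are mostly of the class that meets neither or a single replicate, and broad regions meet both except for 1 region that replicate 2 lacks.

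Regions of 3L came in runs. Of the stretches between neighbouring regions, 26.4% in replicate 1 and 27.0% in replicate 2 were at most 1 kb long, and the median stretch was 3084 bp and 3245 bp. Joining regions up to 1 kb apart left 860 blocks in replicate 1 and 865 in replicate 2, of which 215 and 207 were made of several regions. The 3 widest blocks lay at the same places in both replicates, and ranks 4 and 5 went to blocks at different places. The widest block was 117.8 kb in replicate 1 (709182 to 827008, 4 regions) and 114.2 kb in replicate 2 (712285 to 826529, 1 region). The block next in width was 105.9 kb in replicate 1 (17913521 to 18019444, 3 regions) and 105.4 kb in replicate 2 (17913522 to 18018933, 6 regions). The block of rank 3, at 6756879 to 6849333, 92.5 kb wide, was made of 7 regions in replicate 1, and its counterpart in replicate 2, at 6756960 to 6845947, was 89.0 kb wide and made of 5. At rank 4 was a block at 10307724 to 10388362 (80.6 kb) in replicate 1 and one at 3385749 to 3457073 (71.3 kb) in replicate 2. Both of these places were covered in each replicate. Coverage in replicates 1 and 2 was 84.99% and 83.2% at 10.3 to 10.4 Mb, and 59.7% and 57.4% at 3.4 to 3.5 Mb. None of the 10 widest whole-series regions described below lies in the block of rank 3.

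Coverage varied several-fold from one megabase of 3L to the next, and it did so in the same places in both replicates. Over 23 windows of 1 Mb from the telomere end, the last of which was 0.54 Mb long, mean coverage ranged from 9.14% to 50.2% with a median of 24.5%. The SD over windows was 9.55 percentage points. The replicates differed within a window by a median of 0.93 points and at most 3.55 points, with replicate 1 higher in 17 of the 23 windows. The order of the windows was nearly the same in both (rho 0.99, a description of 1 pair of samples).

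The most covered window was the first of the arm, 0 to 1 Mb, with 51.4% in replicate 1 and 49.1% in replicate 2 (50.2% ± 1.60, SD, n = 2). It was followed by 8 to 9 Mb, with 39.4% in replicate 1 and 36.6% in replicate 2 (38.0% ± 2.04), and by 3 to 4 Mb, with 36.6% and 35.99% (36.3% ± 0.46). The least covered was 5 to 6 Mb, with 9.43% in replicate 1 and 8.86% in replicate 2 (9.14% ± 0.40). The short last window, 22 to 22.54 Mb, had 9.49% and 11.0% (10.2% ± 1.04), and 13 to 14 Mb had 13.6% and 13.7% (13.6% ± 0.085). Which window comes first depends on the grid: with windows that start at 0.5 Mb, 10.5 to 11.5 Mb led with 46.5% ± 0.18, and 0.5 to 1.5 Mb had 37.1% ± 0.46 (SD, n = 2). With windows moved in steps of 100 kb, 0 to 1 Mb was again the highest.

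**Figure D2:**
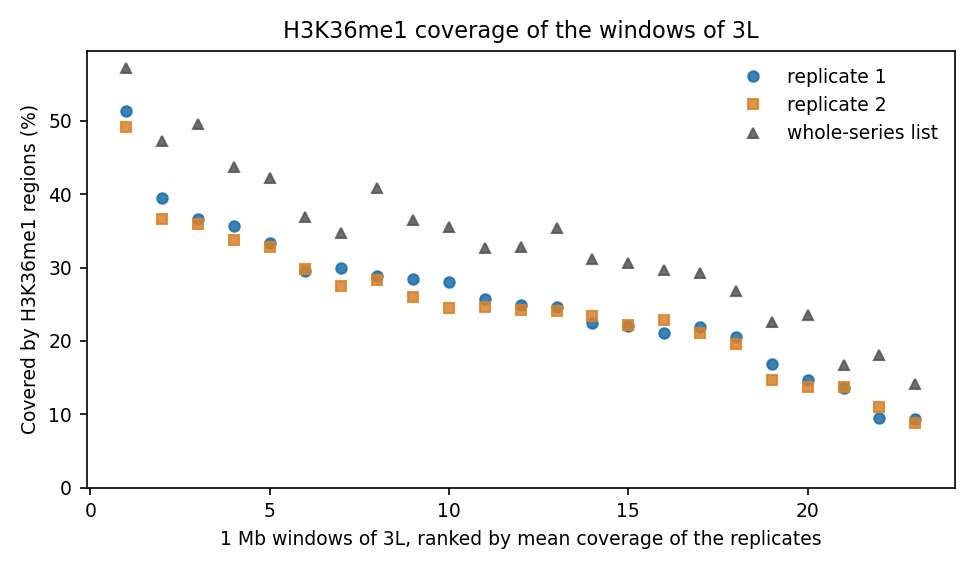
Percent of each 1 Mb window of 3L covered by H3K36me1 regions (vertical axis) in replicate 1, replicate 2 and the whole-series list, with the 23 windows ordered by the mean of the replicates (horizontal axis). The replicates lie within 3.55 points of each other in every window, while the windows range from 9.14% to 50.2%, and the whole-series list is higher throughout.

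The coverage of a window is the summed width of its regions, so a correlation with their number is partly built in. Over the 23 windows, Spearman's rho of mean coverage with the number of regions of both replicates was 0.82, and with their median score 0.12. Over windows of 100 kb the values were 0.77 and 0.44. Windows of 100 kb without a region have no median score, so these values need not rest on the same windows. All come from the same regions and libraries, and number and score cannot be weighed against each other by them. The first megabase stood out in the width of its regions, with a median of 3148 bp in replicate 1 and 2942.5 bp in replicate 2, against 2271 bp and 2207 bp on the rest of the arm. Its regions had a median score of 0.58 in replicate 1 and 0.60 in replicate 2, against 0.54 and 0.57 on the rest of the arm. Broad regions there numbered 14 in replicate 1 and 10 in replicate 2 and held 74.4% and 64.3% of the length of its regions. The window thus held 8.84% of the covered length of 3L in replicate 1 and 8.76% in replicate 2, in 58 and 60 regions, which is 4.95% and 5.06% of the regions.

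At a finer scale the first megabase was uneven. In windows of 100 kb, mean coverage was 45.5% ± 1.32 at 0 to 0.1 Mb and 66.7% ± 5.32 at 0.1 to 0.2 Mb (SD, n = 2). It was 27.7% ± 10.2 at 0.2 to 0.3 Mb, where replicate 1 had 34.97% and replicate 2 had 20.5%. The highest value of the arm was at 0.7 to 0.8 Mb, with 94.9% in replicate 1 and 95.4% in replicate 2. Coverage was then 45.9% ± 0.02 at 0.8 to 0.9 Mb and 0.94% ± 0.24 at 0.9 to 1.0 Mb. The first region began 52252 bp from the telomere end in replicate 1 and 51559 bp from it in replicate 2.

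Windows of 100 kb elsewhere on 3L showed the same contrast of nearly full and empty stretches. Of 225 windows, 31 were covered to more than 50% in both replicates, and 4 of them to more than 80%. These 4 were 0.7 to 0.8 Mb, 17.9 to 18.0 Mb (93.6% in replicate 1 and 91.3% in replicate 2), 10.3 to 10.4 Mb (84.99% and 83.2%) and 11.3 to 11.4 Mb (82.6% and 84.3%).  No region of either replicate touched 19 of the windows, and the whole-series list left 15 windows empty. The replicates differed by a median of 1.68 points and at most 16.4 points in a window. Coverage of a window resembled that of its neighbour weakly and that of windows farther off hardly at all. Spearman's rho was 0.32 between adjoining windows (n = 224), 0.15 at 200 kb (n = 223) and 0.009 at 500 kb (n = 220).

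In sections of 5 Mb, coverage was highest at the telomere end and lowest at the other end. Coverage was 29.6% ± 0.66 in the first 5 Mb, 23.1% ± 0.87 from 5 to 10 Mb, 25.9% ± 0.16 from 10 to 15 Mb and 25.6% ± 1.37 from 15 to 20 Mb (SD, n = 2). From 20 Mb to the limit it was 20.8% ± 0.32. Within the first section, the window of 0 to 1 Mb had 50.2% and the other windows of 1 Mb had 14.2% to 36.3%. Within the last, 20 to 21 Mb had 22.9%, 21 to 22 Mb had 24.5% and the short last window had 10.2%. The first section was above all others in both replicates, and the sections between 10 and 20 Mb did not differ beyond their spread. The density of regions changed less, from 56.9 ± 0.14 regions per Mb in the first section to 49.8 ± 0.57 from 15 to 20 Mb. At the limit itself, the last member of the whole-series list lay at 22465152 to 22466728 with a score of 0.33, and the first region beyond the limit at 22710586 to 22715663 with a score of 0.35. Beyond the limit the whole-series list held 30 more regions of the arm, with 17 for replicate 1 and 21 for replicate 2.

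Stretches without H3K36me1 regions made up most of 3L, and a few of them were long. Taking both replicates together, 30 stretches of at least 100 kb had no region in either, and they added up to 5.02 Mb, or 22.2% of the arm considered. The longest ran from 4725970 to 5131306 (405.3 kb). It was 412.6 kb long in replicate 1 alone and 405.7 kb in replicate 2 alone. The others in order of length were 13506353 to 13903413 (397.1 kb), 9964119 to 10236540 (272.4 kb), 15238684 to 15494166 (255.5 kb) and 18394874 to 18615780 (220.9 kb). Whether reads align throughout these stretches was not tested.

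The whole-series list did place some regions inside the empty stretches. It had 54 regions inside the 30 stretches, and 1 of the 30 was empty in that list as well. The 54 were 10.3% of its 523 regions that met neither replicate, while the stretches made up 22.2% of the arm considered. Taken alone, the whole-series list had 23 stretches of at least 100 kb without a region, 3.85 Mb in all. In the longest stretch it held 8 regions of 1005 to 3677 bp with scores of 0.22 to 0.38. In the stretch at 13506353 it held a single region of 1339 bp with a score of 0.25. Judged by that list alone, the longest stretch of the arm ran from 13507731 to 13902413 (394.7 kb).

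The widest H3K36me1 regions of 3L were covered to at least 78.7% by each replicate, in numbers of pieces that differed between them. The widest whole-series region, 711974 to 826897 (114.9 kb), was 1 region of 114.2 kb in replicate 2 and 3 regions in replicate 1, the widest of 98.5 kb. Replicate 1 started 4 bp before the whole-series start and ended 111 bp after its end, and replicate 2 started 311 bp after the start and ended 368 bp before the end. The whole-series region next in width, 17913396 to 18019473 (106.1 kb), was called in 3 pieces in replicate 1 and 6 in replicate 2. Its widest piece was 52.3 kb in replicate 1 and 35.6 kb in replicate 2.

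Next came 8645731 to 8711839 (66.1 kb), in 5 pieces in each replicate, and 8820378 to 8882205 (61.8 kb), in 2 pieces in each. Both lie in the window of 8 to 9 Mb, which was next to the first in coverage. The following regions were 13221746 to 13271737 (50.0 kb), with 3 pieces in replicate 1 and 2 in replicate 2, and 12659958 to 12709375 (49.4 kb), with 9 pieces in each replicate. The region at 12659958 was the least solid of the 10 widest. Replicate 1 began 2301 bp after its start and replicate 2 ended 1648 bp after its end. Replicate 1 covered 78.7% of it and replicate 2 85.4%, and its whole-series score of 0.75 was the lowest among them. At 10509129 to 10558142 (49.0 kb), coverage was 90.4% in replicate 1 and 88.7% in replicate 2. For the other 8 of the 10 widest regions, the replicates covered on average 93.6% to 99.5%.

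The last 3 of the 10 widest regions were 16858300 to 16906900 (48.6 kb), 443852 to 492333 (48.5 kb) and 606701 to 651486 (44.8 kb). Replicate 1 called the first of them in 3 pieces and replicate 2 in 4, and the region at 443852 in 2 and 4. Offsets from the whole-series end were -1636 bp in replicate 1 and -1659 bp in replicate 2 at 443852, and -673 bp and -1387 bp at 16858300. The region at 606701 was 1 piece in each replicate, of 44.7 kb in replicate 1 and 44.4 kb in replicate 2. It was the widest whole-series region of 3L that met 1 region in each replicate, and the single region that was among both the 10 widest and the 10 best-scoring.

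**Figure D3:**
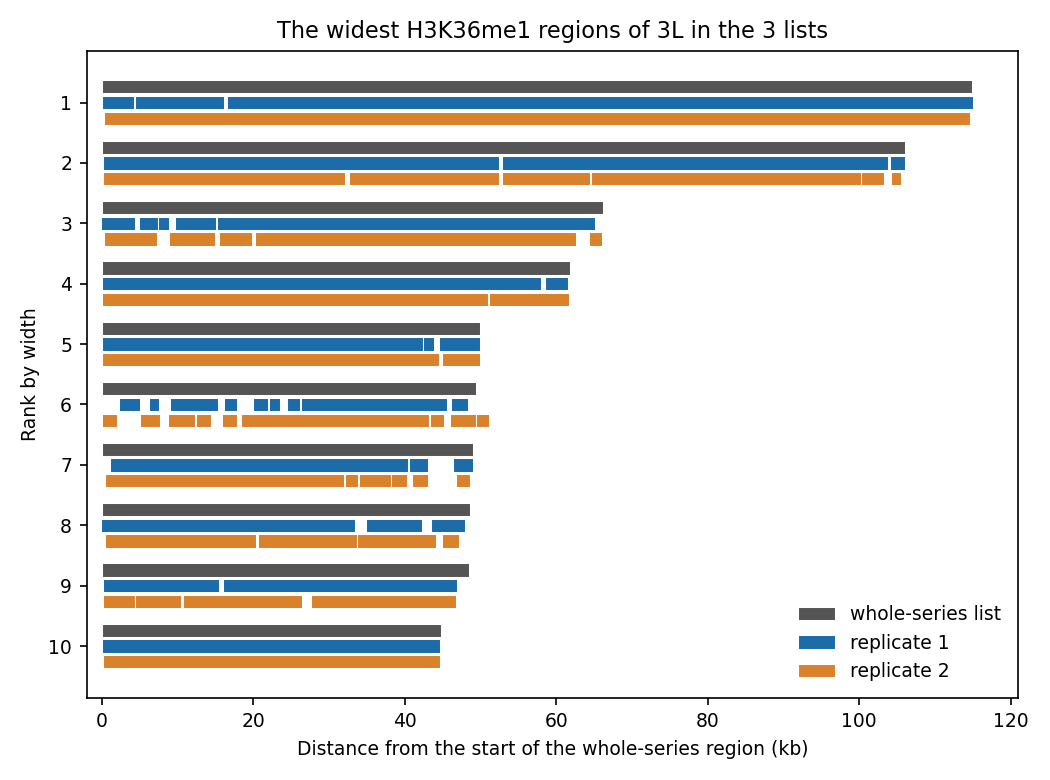
Extent of the 10 widest whole-series H3K36me1 regions of 3L that meet both replicates, ranked by width (vertical axis), with distance in kb from the start of each whole-series region (horizontal axis) and 1 bar for each region called in the whole-series list, replicate 1 or replicate 2. Outer edges lie from 0 bp to 2301 bp from those of the whole-series region, and the number of pieces goes from 1 in each replicate at rank 10 to 9 in each at rank 6.

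Over all broad regions of the whole-series list on 3L, splitting was about as frequent as calling in 1 piece. Of 172 such regions, 75 were met by exactly 1 region in each replicate. A further 60 were split in both replicates, out of 75 split in replicate 1 and 82 split in replicate 2. The median share covered was 97.3% by replicate 1 and 94.8% by replicate 2. The broad whole-series region missing from replicate 2 lay at 18646287 to 18657581 (11.3 kb). It met 2 regions of replicate 1 and had a low score for its width, 0.42. It is named here because its values stood apart. Compared with each other, the replicates met in all 144 broad regions of replicate 1 and all 135 of replicate 2. The other replicate covered at least 70.9% of each broad region of replicate 1 and at least 77.6% of each of replicate 2.

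The best-scoring regions of 3L were of moderate to large width. The highest whole-series score, 1.92, belonged to 543054 to 570899 (27.8 kb), which scored 2.01 in replicate 1 and 1.82 in replicate 2. It was 1 region in each replicate, covered to 99.4% ± 0.13 (SD, n = 2). The region at 16134306 to 16157700 (23.4 kb) followed with 1.75, and scored 1.82 in replicate 1 and 1.69 in replicate 2. The unsplit broad region at 606701 came next with 1.69, with 1.68 in replicate 1 and 1.71 in replicate 2. The region at 309875 to 322109 (12.2 kb), had 1.65 in the whole-series list and 1.73 in replicate 1. In replicate 2 it was split in 2 pieces, and the better had 1.82. Of the 10 best, 8 were broad and 3 lay in the first megabase. That megabase held 4.38% of the whole-series regions of 3L, 7.83% of their length and 15 of the 172 broad ones. Whether the 10 were unevenly placed was not tested.

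The other best-scoring regions lay farther along the arm. The region at 16030040 to 16039335 (9.30 kb) scored 1.60 in the whole-series list, with 1.65 for replicate 1 and 1.59 for replicate 2. The regions at 19718057 to 19733982 (15.9 kb) and 19881986 to 19902577 (20.6 kb) each had 1.57 in the whole-series list. At 19718057 replicate 1 had 1.63 and replicate 2 had 1.53. The region at 19881986 was split in 2 in both replicates, the better-scoring part reaching 1.88 in replicate 1 and 1.68 in replicate 2. Scores at 10658469 to 10681550 (23.1 kb) were 1.64 in replicate 1 and 1.57 in replicate 2, and those at 6966196 to 6973247 (7.05 kb), the narrowest of the 10, were 1.60 and 1.58. The region at 17554676 to 17570391 (15.7 kb) was 1 region with 1.68 in replicate 1 and 3 regions in replicate 2, the best of which had 1.75. A piece and an unsplit region differ in extent, so their scores are not like for like.

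Replicates met in most H3K36me1 regions of 3L, in shares close to those over all sequences. By at least 1 bp, 951 of the 1172 replicate 1 regions overlapped replicate 2, a share of 81.1% (Wilson 95% interval 78.8% to 83.3%), beside 80.1% over all sequences. In the other direction 1000 of 1185 did, or 84.4% (82.2% to 86.3%), beside 84.2% over all sequences. In base pairs the replicates shared 5.06 Mb of a union of 6.42 Mb, which is 78.9%. The shared length was 86.6% of that of replicate 1 and 89.8% of that of replicate 2. The intervals hold counting error alone and treat neighbours as independent.

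Width and score went with meeting. Of regions of up to 2 kb, 61.8% of replicate 1 and 67.3% of replicate 2 met the other replicate, and of regions of 2 to 5 kb, 91.9% and 94.7%. Among regions of 5 to 10 kb, 132 of 133 in replicate 1 and 134 of 134 in replicate 2 did. By score, the lowest-scoring 25% of regions had a partner at a rate of 63.8% (replicate 1) and 77.8% (replicate 2), and the best-scoring 25% at 99.7% and 99.3%. In replicate 1 the rate rose at each step, with 69.6% for the next-lowest 25%. In replicate 2 it did not, since the next-lowest 25% had 72.0%. Width and score rose together, and their parts in this were not separated. Because an overlap of 1 bp counted, a wider region could meet another more easily by position alone. The share to be had from width alone was not computed.

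The 221 regions of replicate 1 and 185 of replicate 2 that the other lacked were short. They were 1561 bp (replicate 1) and 1572 bp (replicate 2) wide at the median and held 6.49% and 5.44% of the covered length. The nearest region of the other replicate was a median of 2430 bp away for replicate 1 and 3004 bp for replicate 2. It was within 1 kb for 59 and 43 of them, and beyond 10 kb for 22 and 43. The whole-series list met 220 of the 221 and 184 of the 185. The best-scoring region of replicate 1 without a partner, at 19855939 to 19858110, had a score of 0.83 there and met a whole-series region with 0.49. The next, at 9102125 to 9105075 (0.72) and 216002 to 219680 (0.71), lay 78 bp and 10.1 kb from replicate 2. The best-scoring of replicate 2 was at 19740433 to 19743053 with 0.86, against 0.61 in the whole-series list, followed by 9573193 to 9575276 (0.76) and 8458453 to 8461082 (0.73).

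Where a region of one replicate met exactly 1 of the other, most edges were placed within 1 kb of each other. There were 700 such pairs on 3L. Starts differed by a median of 154.5 bp and ends by a median of 149.5 bp. The starts lay within 100 bp of each other in 252 pairs and the ends in 264, whereas 8.14% of starts and 8.29% of ends were more than 1 kb apart. Edges of the broadest pairs were no farther apart than those of medium width. The median difference was 125.5 bp for starts and 116.5 bp for ends in 30 pairs of 20 to 50 kb, and 116 bp and 134 bp in 239 pairs of up to 2 kb. It was 187 bp and 177 bp in 297 pairs of 2 to 5 kb. The shared part was a median of 98.5% of the joint extent for 20 to 50 kb and 85.1% for up to 2 kb. A given edge difference takes a smaller share of a wider region. Regions that met several of the other replicate are not among the pairs.

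A small shift ran through the pairs: regions of replicate 1 reached farther out on both sides. The median of replicate 1 minus replicate 2 was -47.5 bp for starts and 30 bp for ends. Replicate 1 was the wider in 428 of 700 pairs (61.1%), by a median of 98.5 bp. The share was 73.8% for pairs of 5 to 10 kb and 56.5% for those of up to 2 kb. Pairs are not independent replicates, so no test was made.

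**Figure D4:**
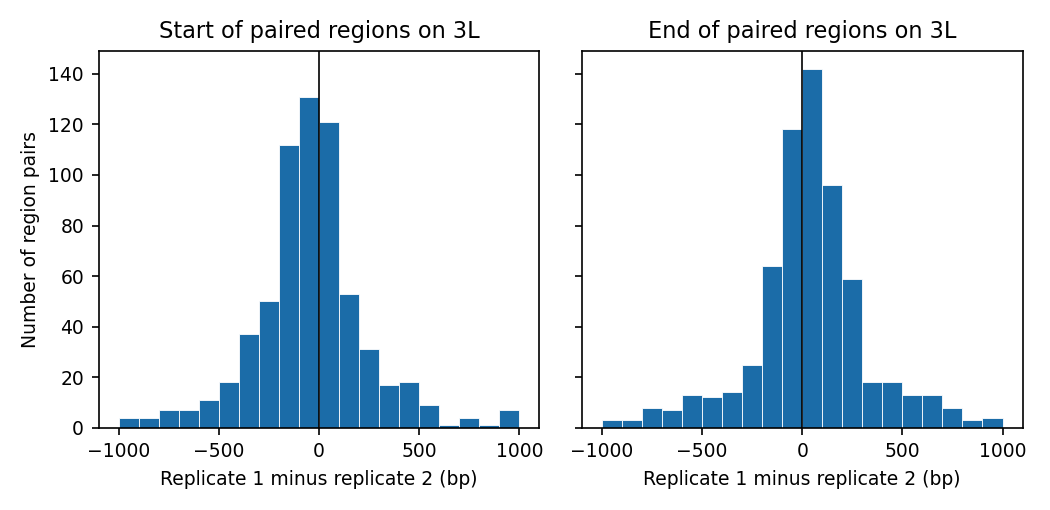
Number of region pairs on 3L (vertical axis) by the position of the start (left) and the end (right) in replicate 1 minus that in replicate 2, in bins of 100 bp (horizontal axis, bp), for the 700 pairs that met one to one, of which 57 starts and 59 ends fall outside the axis. Starts lean to negative and ends to positive values, with medians of -47.5 bp and 30 bp.

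Scores of paired regions were close and leaned to one replicate or the other by width class. The median score was 0.56 in replicate 1 and 0.58 in replicate 2, but the median difference within pairs, replicate 1 minus replicate 2, was 0.008 with an SD of 0.11 over pairs. Replicate 1 was the higher in 369 of 700 pairs (52.7%). Pearson's r across the 700 pairs was 0.93 and Spearman's rho 0.88, as a description of 1 pair of samples. Within pairs of up to 2 kb, rho was 0.52, and within pairs of 20 to 50 kb it was 0.94. The lower rho did not come with larger score differences. Their median absolute size was 0.058 for up to 2 kb and 0.076 for 20 to 50 kb, with SDs of the difference of 0.090 and 0.101. Replicate 1 had the higher score in 42.3% of pairs of up to 2 kb, 50.5% of those of 2 to 5 kb, 72.6% of those of 5 to 10 kb, 78.0% of those of 10 to 20 kb and 60.0% of those of 20 to 50 kb. The share did not rise throughout with width. The largest difference among pairs was at 10409955 to 10411486 in replicate 1, where the score was 0.59 against 0.98 for the wider region of replicate 2. This pair was chosen after its values were seen.

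The whole-series list was more inclusive on 3L than either replicate. It covered 33.7% of the arm with 1665 regions and a median width of 1998 bp. It held 99.5% of the union of the replicates at 1.18 times its length, and 1.21 Mb of it lay beyond that union. Of its regions, 780 met both replicates, which is 46.8% (Wilson 95% interval 44.5% to 49.2%), the same as the 46.8% over all sequences. Neither replicate had a region at 523, which is 31.4% (29.2% to 33.7%), beside 31.5% over all sequences. A further 199 met replicate 1 alone and 163 replicate 2 alone.

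Regions of the whole-series list that both replicates lacked were short. Their median width was 1296 bp, against 4146.5 bp for regions that met both, and they held 9.59% of the length of the list. Of these 523 regions, 265 were narrower than 1301 bp, the narrowest region of the replicates on 3L, and 258 were not. Their median score was 0.33, against 0.31 for regions that met replicate 1 alone, 0.35 for those that met replicate 2 alone and 0.53 for those that met both. A replicate region lay within 1 kb of 164 of them, and none within 10 kb of 74. The 3 best-scoring were at 8497979 to 8499071 with 0.76, at 17792966 to 17794739 with 0.74 and at 11564730 to 11565730 with 0.72, and each was under 1.8 kb wide.

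In regions that all 3 lists called one to one, the whole-series region was usually the widest and the lowest in score. Of 560 such regions on 3L, 513 were widest in the whole-series list (91.6%), with a median width of 3183 bp, and 2492 bp in replicate 1 and 2358 bp in replicate 2. The whole-series score was below both replicate scores in 366, between them in 194 and above both in 0. The median difference from the mean of the replicates was -0.06.

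Beside the arms 2L, 3R and X, 3L was the most covered of the 4 compared, by a few percentage points. The arm 2R was not among them. With 2 Mb left out at the centromere end of each, 3L stood at 25.4% ± 0.64 covered, next to 22.0% ± 0.62 for 2L, 22.6% ± 0.62 for 3R and 23.3% ± 1.38 for X (SD, n = 2). The difference from X was the least steady, 1.66 points in replicate 1 and 2.70 points in replicate 2. The difference of 3L from 2L, 3R and X together was 2.68 points in replicate 1 and 2.97 points in replicate 2, or 2.83 ± 0.21 points (SD, n = 2). It was larger than the spread between replicates and far smaller than the SD of 9.55 points among windows of 3L, and it was not tested. Without 1 Mb at the telomere end of each arm it fell to 1.88 points, and the lead over X was then within the spread between replicates: 24.72% on 3L against 24.65% on X in replicate 1, and 23.9% on 3L against 22.6% on X in replicate 2. With the last 2 Mb of each arm kept it was 1.66 points and with the best-scoring 50% of each list 1.42 points. The density of regions on 3L was 52.3 ± 0.41 per Mb, against 44.7 ± 0.07 on 2L, 46.2 ± 0.08 on 3R and 49.3 ± 0.17 on X.

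In median width and score, regions of 3L were close to those of 2L and 3R. Both medians were lower on 3L than on X. The median width on 3L, 2253 bp ± 41.4, differed from that on 2L by 31.5 bp ± 46.7 and from that on 3R by -13.2 bp ± 18.0 (SD, n = 2), within the spread between replicates. Its median score of 0.56 ± 0.02 differed from that on 2L by -0.01 and from that on 3R by -0.002. The difference from X was -0.10 ± 0.016 in median score and -122 bp ± 1.41 in median width. The widest regions went the other way. They measured 98.5 kb in replicate 1 and 114.2 kb in replicate 2 on 3L, against 55.7 kb and 49.1 kb on X. Broad regions held 48.4% ± 1.71 of the covered length on 3L, 48.1% ± 2.36 on 2L, 46.6% ± 1.55 on 3R and 43.5% ± 2.43 on X. Taken per replicate, the difference of 3L from X was 4.40 points in replicate 1 and 5.42 points in replicate 2, that from 3R 1.87 and 1.64 points, and that from 2L -0.18 and 0.75 points. Stretches of at least 100 kb without a region numbered 33 in replicate 1 and 32 in replicate 2 on 3L, against 39 and 40 on 2L, 52 and 48 on 3R, and 37 in each on X. These counts are not scaled to the length considered, which was 22.5 Mb on 3L, 21.0 Mb on 2L, 25.9 Mb on 3R and 20.4 Mb on X.

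**Figure D5:**
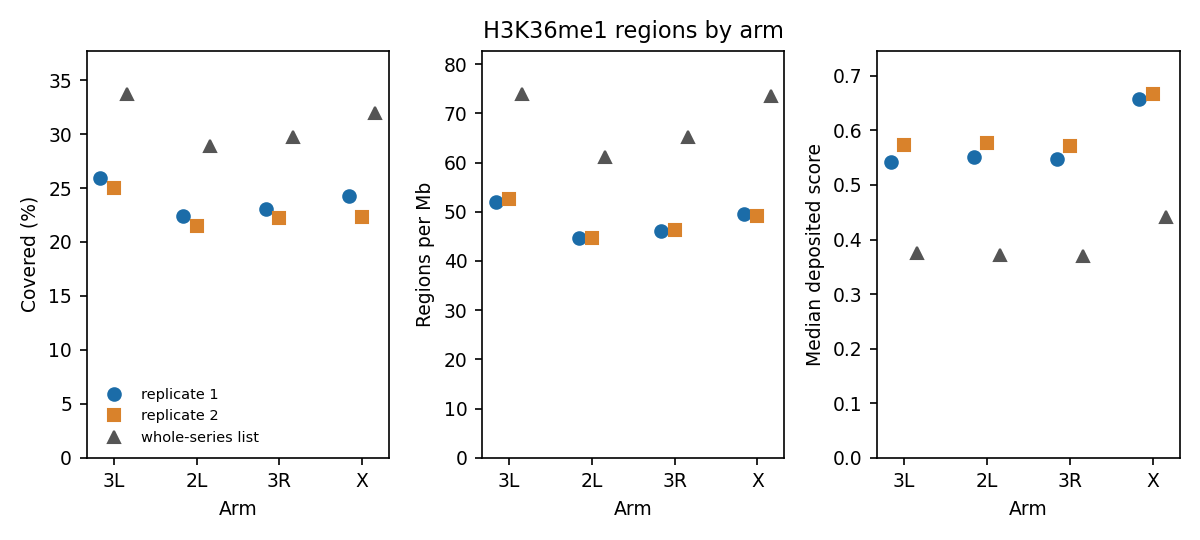
Coverage in percent (left), regions per Mb (middle) and median deposited score (right) of H3K36me1 regions on arms 3L, 2L, 3R and X (horizontal axes), each without 2 Mb at the centromere end, as 1 point for each of replicate 1, replicate 2 and the whole-series list. 3L has the highest coverage in every list, 25.4% as the mean of the replicates against 22.0% on 2L, and its median score is near those of 2L and 3R and below that of X.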

How the data were processed

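The data analysed were the authors' deposited region lists, 1 for each of 2 ChIP samples and 1 for the whole series. Per the submitters' processing notes, reads were aligned with Bowtie 0.12.7. For the region caller, its thresholds and the making of the whole-series list, the sources used here give no details. The file headers name FlyBase release 5 as the build, and the score of each region is the authors' deposited value, of unstated scale. One region of depletion, on another arm, was left out of all counts.

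An overlap of 1 bp or more counted as meeting (bedtools 2.31.1). Coverage, widths, stretches, windows and edges were computed with scipy 1.17.1, pandas 2.3.3 and numpy 2.4.6 under Python 3.11.15, with matplotlib 3.10.9 for figures. The interval functions were tested on simulated data. On a window grid, a last window shorter than 50% of its length was left out. For 3R the telomere end is the end of the sequence. The arm 2R entered counts over all sequences but no comparison of arms.

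Members, lists and named regions were chosen with earlier results of these data known. The text names, of whole-series regions that met both replicates, the 10 with the highest score and the 10 of greatest width, the 3 best-scoring whole-series regions that met neither, the 3 best-scoring of each replicate without a partner, the 5 longest stretches, the 3 most and the 3 least covered windows, and the regions next to the limit. A few others are marked as chosen after their values were seen. Shares have Wilson 95% intervals, for counting error alone. Alternatives were another list, the best-scoring 50% of regions, joining over 1 kb, other overlaps, other limits at the arm ends, another window grid and leaving out each replicate.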

Additional observations from a re-analysis of the deposited data

How the results depend on the processing

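Of 41 alternative values for 7 results on 3L, 18 stayed close to the main value and 23 moved. Close meant within 1 SD of the replicates, within the Wilson interval or, for the number of regions, within 1.5 times. Only the difference from the other arms could change sign, and it did not. Leaving out a replicate gave 14 of the 41 values, and of the other 27, 7 stayed close and 20 moved. For means of the replicates, leaving out 1 of 2 moves the value by less than 1 SD by construction. The steps of 100 kb and the stretches with 1 replicate left out were chosen after seeing the data. Keeping the best-scoring 50% left 757 whole-series regions on 3L, with coverage 20.0%, the share meeting both replicates 78.5%, the length in broad regions 61.5%, the top window 44.9%, the difference from the other arms 1.42 points and the longest stretch 457.7 kb. With the whole-series list, coverage was 33.7%, the top window 57.1%, the difference 3.55 points and the longest stretch 394.7 kb. Joining over 1 kb gave 53.1% meeting both and 61.9% of length in broad regions. Asking that 50% of the region be covered gave 42.9% meeting both, and that its midpoint be covered 43.1%. With the last 2 Mb kept, coverage was 23.8% and the difference from the other arms 1.66 points. Without the first 1 Mb, they were 24.3% and 1.88 points. Windows that start at 0.5 Mb gave a top value of 46.5%. The cause of these moves was not tested.

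Leaving out each replicate, coverage was 24.99% to 25.9%, the number of regions 1172 to 1185, the share meeting the remaining replicate 56.6% to 58.8%, the length in broad regions 47.2% to 49.6%, the top window 49.1% to 51.4%, the difference 2.68 to 2.97 points and the longest stretch 405.7 to 412.6 kb. No paired analysis was possible because the ChIP samples form 1 group, with no other group of samples to pair them with here, and arms were instead compared within each replicate. Depth is unknown.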
